A study of Mus musculus with 121 samples.

Results

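The comparison described here is that of polyA RNA after 24 h of auxin with polyA RNA before auxin (0 h) in the YY1-AID subline of mouse G1E-ER4 cells, over all genes of the count table. It rests on 6 of the 121 samples of the series, 3 libraries at 24 h and 3 at 0 h, and on the 15157 of 55351 listed gene symbols that had enough counts to be tested. G1E-ER4 is a line of erythroid progenitor cells derived from embryonic stem cells that lack GATA1 and carry a GATA1 fused to a hormone receptor. The subline makes YY1 with an auxin-inducible degron attached, so both groups carry the tagged protein and only the 24 h group had it marked for breakdown. Both groups were asynchronous cultures of the same subline, and the labels name no hormone treatment for them. No library of cells kept for 24 h without auxin is used here, so the effects of YY1 loss, of auxin itself and of time in culture cannot be told apart. The labels number the replicates without saying that they were separate cultures, so p-values measure the spread between these libraries, which may be technical. The series also holds libraries at 4 h and 48 h (3 each), which shared the fit, and TT-seq (RNA labelled in a short pulse) after 4 h of auxin, ChIP-seq and Micro-C.

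YY1 is a zinc finger protein that binds many promoters close to the transcription start, where it can activate or repress, and it is known for its part in the transcription of mitochondrial and ribosomal genes. It also binds enhancers and can bring distant elements together, and it is the mammalian relative of Pho, the factor that recruits Polycomb complexes to DNA in Drosophila. Red cell precursors depend on GATA1, TAL1, LDB1 and KLF1, and leave the progenitor state as GATA2, KIT, MYB and MYC decline.

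The libraries were of like depth, with 25299166 to 25596645 counts at 24 h and 26011602 to 26210181 counts at 0 h. Levels are given as CPM, counts scaled to a common library size with TMM factors, in the order of replicates 1, 2 and 3. CPM is not corrected for transcript length, so it is compared between libraries and not between genes. Log2 fold changes are of 24 h over 0 h, the value after ± is their standard error, and a gene is called when its adjusted p in edgeR's quasi-likelihood test is below 0.05. Yy1 mRNA had 261, 236 and 239 CPM at 24 h, against 267, 277 and 239 CPM at 0 h. The groups overlapped, and the log2 fold change of −0.089 ± 0.088 did not pass the test (adjusted p = 0.44). The degron acts on the protein, so this mRNA does not check its loss.

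After 24 h, 43.0% of the tested genes were called, 3253 higher (21.5%) and 3258 lower (21.5%). The called genes moved by different amounts: the median was 0.70 among the higher genes and −0.47 among the lower, and over all tested genes it was 0.03. By more than 1 on the log2 scale, 1125 genes were higher (7.42%) and 462 lower (3.05%). The 24 h and 0 h libraries did not overlap in CPM for 7921 genes (52.3% of those tested). Of the genes higher by more than 1, 653 carried predicted or clone-type names, against 71 of those lower by more than 1. The even split of calls depends on the scaling between libraries. With total counts in place of TMM factors, chosen after seeing the data, the median of all genes was 0.19 instead of 0.03, and 4975 genes were higher and 2019 lower, so that 71.1% of the calls were higher. Directions below are therefore relative to TMM scaling, which places the median gene near 0.

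Which way a gene went was tied to how strongly it was counted. Among the 743 genes with a mean log2 CPM above 8, 402 fell (54.1%) and 39 rose (5.25%), with a median log2 fold change of −0.20. Between 6 and 8, 39.0% fell and 14.3% rose, and between 4 and 6 the shares were alike at 26.3% lower and 24.5% higher. The order was the opposite at low levels, with 31.9% higher and 17.7% lower between 2 and 4, and 18.5% higher and 2.47% lower at 0 or below, where the median was 0.44. Counts of called members in the gene lists below are to be read beside the shares at their level. Transcripts of the higher genes took 13.5% to 14.1% of the counts at 24 h, against 9.13% to 9.25% at 0 h. Transcripts of the lower genes took 38.9% to 39.6% at 24 h, against 48.1% to 48.3% at 0 h. The number of gene symbols with any count was 22434 to 22962 at 24 h, against 21396 to 21473 at 0 h, so every 24 h library detected more symbols than any 0 h library although it held fewer counts.

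**Figure D1:**
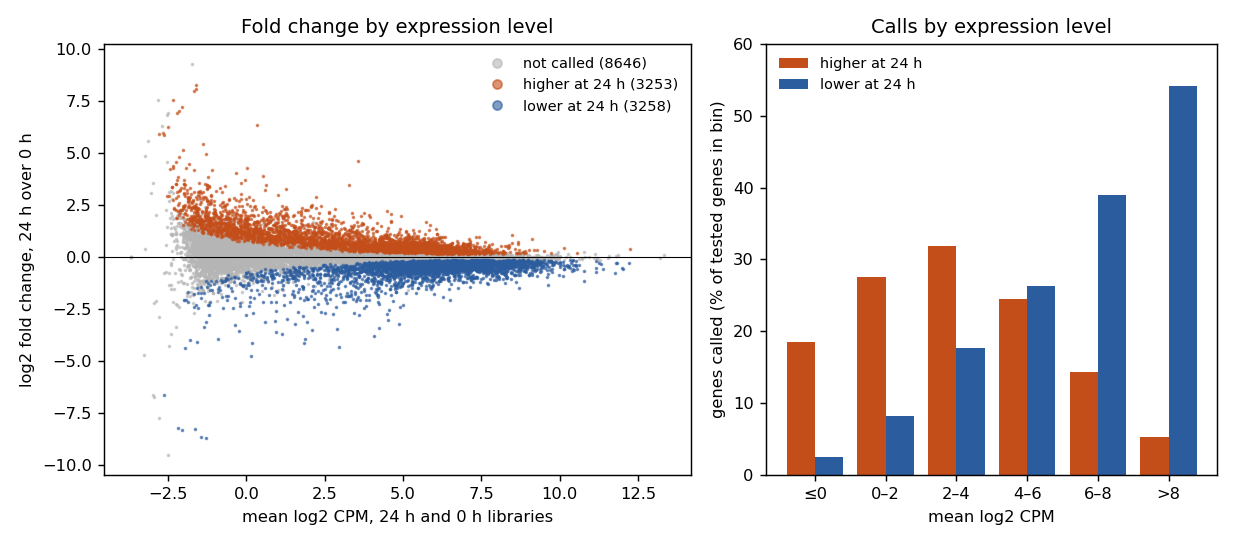
Left, log2 fold change of 24 h over 0 h against the mean log2 CPM of each tested gene (n = 3 libraries a group), coloured by the call. Right, the percent of tested genes called higher or lower in each bin of mean log2 CPM, where the share of higher genes peaks at 31.9% between 2 and 4 and the share of lower genes reaches 54.1% above 8.

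The 10 largest decreases and increases were taken among called genes with a mean log2 CPM of 3 or more. Genes with predicted or clone-type names were left out, as were genes whose 24 h and 0 h libraries overlapped in CPM. Under this rule, the 10 largest decreases included several enzymes and proteins of mitochondria. Clybl, a mitochondrial citramalyl-CoA lyase, had 2.22, 4.14 and 7.80 CPM at 24 h, against 61.3, 64.7 and 71.2 CPM at 0 h (−3.80 ± 0.29, adjusted p = 5.82e-07). Chchd10, a protein of the space between the mitochondrial membranes, had 3.88, 6.36 and 7.17 CPM at 24 h, against 48.5, 60.4 and 76.0 CPM at 0 h (−3.41 ± 0.23). Dbt, the E2 subunit of the complex that oxidises branched-chain keto acids, had 3.35, 6.06 and 4.40 CPM at 24 h, against 29.7, 36.1 and 29.7 CPM at 0 h (−2.79 ± 0.17, adjusted p = 7.69e-08). The rule of choice sets the groups of these genes apart, so their separation is not a result. Pcca, the alpha subunit of propionyl-CoA carboxylase, was −2.57, with 8.39, 10.1 and 10.3 CPM at 24 h, against 52.99, 51.2 and 66.8 CPM at 0 h. Sfmbt2, an MBT-domain Polycomb protein whose Drosophila counterpart partners Pho, had 9.26, 8.91 and 10.7 CPM at 24 h, against 87.1, 99.0 and 80.6 CPM at 0 h (−3.21 ± 0.11, adjusted p = 1.92e-09). Among the 10, Sfmbt2 had the smallest standard error. Cdk5rap2, a centrosome protein that helps to nucleate microtubules, had 7.26, 9.10 and 9.11 CPM at 24 h, against 55.1, 56.5 and 61.8 CPM at 0 h (−2.77 ± 0.30). Ncoa1, a coactivator of nuclear receptors, had 5.16, 3.498 and 3.99 CPM at 24 h, against 28.9, 32.9 and 21.6 CPM at 0 h (−2.72 ± 0.21). The remaining genes of the 10 were Ttc27, a protein of tetratricopeptide repeats, at −3.05, the cilium-associated gene Cfap418 at −2.46 and Col18a1, which encodes the collagen that endostatin is cut from, at −2.43. In nascent RNA after 4 h, 9 of these genes were also measured, and all 9 were below 0 there, from −0.40 ± 0.27 for Col18a1 to −2.31 ± 0.094 for Ttc27. In polyA RNA at 4 h, against the same 0 h libraries, the 10 stood between −1.30 (Dbt) and −0.26 (Col18a1).

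RefSeq promoter sequences (GRCm38.p6, 250 bases before to 50 after each annotated start) were found for 8 of the 10 genes. Of the 8, 4 held GCCATNTT, the core of the YY1 motif, or its reverse complement AANATGGC, in any of their promoters. Counted by promoter and not by gene, the share with a match was 9.06% over all tested genes and 17.0% for genes lower by more than 1 (log2). The 30 bases around a match in each of the 4 are shown on the gene's strand, 5′ to 3′, with the match in capitals. They are shown because these genes are among the 10 decreases named above.
Clybl, chr14:122181712-122181741, plus strand: ggccagtcgggAAGATGGCgttgtgcgtgc
Sfmbt2, chr2:10372434-10372463, plus strand: atagagaggatGCCATATTggaatgaggct
Cdk5rap2, chr4:70410410-70410439, minus strand: aagcgccgggaAAGATGGCggcggctgcgg
Ncoa1, chr12:4477133-4477162, minus strand: cggcagccgtggaggaggagAACATGGCgg
All 4 matches lie after the annotated start, with their first base 30 bases after it in Clybl, 10 in Sfmbt2, 8 in Cdk5rap2 and 41 in Ncoa1. Cdk5rap2 held a further 3 matches before its start. A match says only that these letters are in the window, not that YY1 binds there.

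Under the same rule, the 10 largest increases went by smaller steps, apart from Spata31f1a. The predicted and clone-type names that the rule leaves out made up 653 of the 1125 genes higher by more than 1, against 71 of the 462 lower. Spata31f1a, of a gene family known from testis, had 50.2, 57.4 and 68.0 CPM at 24 h, against 2.32, 2.30 and 2.49 CPM at 0 h (4.62 ± 0.13, adjusted p = 2.46e-10). This family holds near-identical copies among which the estimated counts can be split, so its value is uncertain; Spata31f1b, looked up after these values were seen, was 4.29 ± 0.50. Msh5, a meiotic relative of mismatch repair proteins, had 40.4, 44.0 and 63.0 CPM at 24 h, against 13.04, 9.69 and 9.22 CPM at 0 h, and Itga2b, the alpha chain of the platelet fibrinogen receptor (CD41), had 81.6, 91.5 and 112 CPM at 24 h, against 28.9, 33.1 and 26.3 CPM at 0 h (1.69 ± 0.13). Clec4d, a C-type lectin receptor, had 55.7, 45.2 and 50.3 CPM at 24 h, against 12.6, 12.7 and 10.6 CPM at 0 h (2.07 ± 0.11, adjusted p = 3.54e-08). In each of these the groups lie apart by the rule of choice. Cyb5d2, a heme-binding protein, had 28.98, 33.1 and 29.7 CPM at 24 h, against 7.38, 7.43 and 7.63 CPM at 0 h (2.03 ± 0.079), and it was already at 1.84 after 4 h and at 1.68 ± 0.11 in nascent RNA. Mttp, which loads lipid onto apolipoprotein B, was 1.98 ± 0.095, while its 4 h value was −0.15. Dglucy, a mitochondrial D-glutamate cyclase, was 1.93 ± 0.17, Syngr4, a synaptogyrin, 2.10 ± 0.10, and Tspoap1, a partner of the translocator protein of mitochondria, 1.70 ± 0.19. Il1bos, annotated antisense to Il1b, was 1.97 ± 0.17; the sources used here do not say whether the counting used strand, so its reads and those of Il1b (log2 fold change 1.18 ± 0.19, looked up for this reason) may not be separated. Counted by promoter, the share with the motif was 9.06% over all tested genes and 6.1% for genes higher by more than 1 (log2). Counted by gene, of the 7 of these 10 genes with a promoter in the table, 2 held the motif, both farther before the start. They are shown for contrast with those of the genes that fell.
Cyb5d2, chr11:72796025-72796054, minus strand: ccgcctctgccGCCATCTTtgttgagggcg
Mttp, chr3:138143589-138143618, minus strand: acagccgcagtGCCATATTtaccgtgccgc
The first base of the match lies 204 bases before the annotated start in Cyb5d2 and 189 before it in Mttp.

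**Figure D2:**
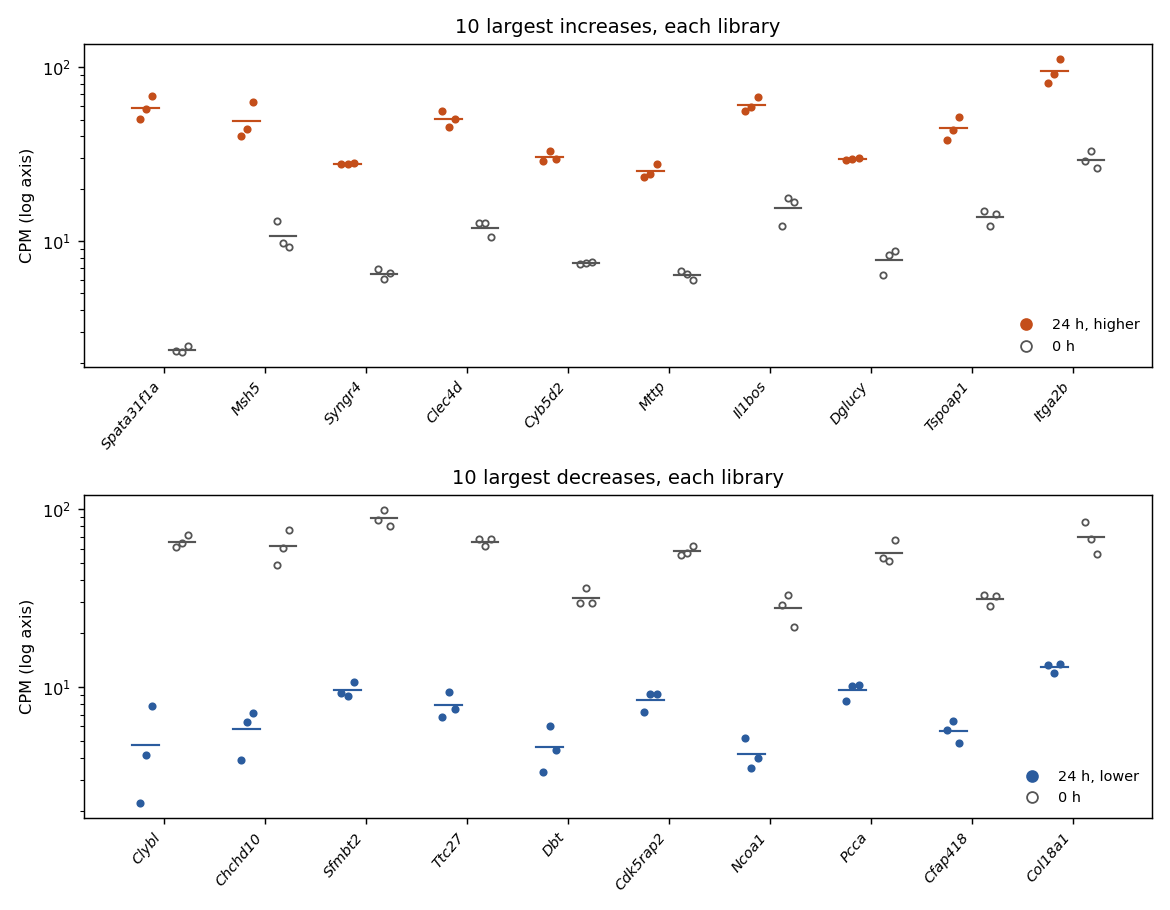
CPM of each library on a log axis for the genes with the 10 largest increases (top) and decreases (bottom) among called genes with a mean log2 CPM of 3 or more whose 24 h and 0 h libraries lie apart. Predicted and clone-type names are left out. Points are libraries (filled, 24 h; open, 0 h; n = 3 each) and bars are means; Clybl has 2.22 to 7.80 CPM at 24 h, against 61.3 to 71.2 CPM at 0 h.

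Among strongly counted genes, with a mean log2 CPM of 8 or more, the decreases with the smallest p were near 1 on the log2 scale. Pebp1, an inhibitor of RAF signalling, had 197, 205 and 203 CPM at 24 h, against 422, 409.5 and 432 CPM at 0 h (−1.06 ± 0.052, adjusted p = 1.67e-08). Csnk1a1, the casein kinase that marks beta-catenin for breakdown, had 223, 219.9 and 217 CPM at 24 h, against 426, 454 and 432 CPM at 0 h (−0.99 ± 0.057). Hk1, the hexokinase that red cells rely on for glycolysis, had 196, 194 and 184 CPM at 24 h, against 372, 363 and 357 CPM at 0 h (−0.93 ± 0.052). Replicates of these genes lay within a few percent of each other in both groups. Septin8, a cytoskeletal GTPase, Anp32a, a histone chaperone, and Mcm5, a subunit of the replicative helicase, were −1.08, −1.06 and −0.88. Among the increases, the largest of the genes named here was that of Gabpb2, a partner subunit of the ETS factor GABPA, with 539.7, 487 and 503 CPM at 24 h, against 228, 275 and 238 CPM at 0 h (1.05 ± 0.076, adjusted p = 3.49e-07). Gabpb2 was also higher in nascent RNA after 4 h (0.88 ± 0.086). Ccng1, a cyclin and p53 target, was 0.66 ± 0.053, the RNA helicase Ddx17 0.73 ± 0.06, Utp20, which matures 18S rRNA, 0.54 ± 0.06, and Oaz1, the antizyme that limits polyamine synthesis, 0.57 ± 0.078. Rpl23a was 0.45 ± 0.065, but ribosomal protein genes have many processed copies, so its count is uncertain.

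Few genes switched between near silence and expression. With at least 1 CPM in every 24 h library and at most 0.1 CPM in every 0 h library there were 3 genes, 1 of them with a predicted name. Eif1ad3 had 30, 40 and 27 counts at 24 h and 0 in every 0 h library, which makes it at least 9.90-fold higher against a floor of 3 counts per library. Got1l1, a relative of aspartate aminotransferase, had 34, 43 and 36 counts at 24 h, against 0, 1 and 2 counts at 0 h. In the mirror case there was 1 gene, Ndufb4b, with 0 counts in every 24 h library and 46, 50 and 54 counts at 0 h, at least 18.2-fold lower against the same floor. Ndufb4b is a near-identical copy of the complex I gene Ndufb4, which was looked up after these values were seen and had 7.38, 8.12 and 9.41 CPM at 24 h, against 12.8, 12.98 and 14.8 CPM at 0 h, so the split of reads between the copies is uncertain.

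The red cell program did not move as 1 block. Among genes of the red cell membrane, 6 of 19 tested members were higher and 3 lower (median 0.12), whereas erythroid regulators were more often lower, with 7 of 15 lower and 1 higher (median −0.23). These counts stand beside 21.5% of all tested genes in each direction. Of those with a mean log2 CPM of 6 to 8, where the medians of both lists lie, 39.0% were lower and 14.3% higher. The 46.7% of regulators that were lower are near the share at that level. With total counts as library sizes, the split of the regulators was 3 higher and 4 lower. DESeq2 called 6 membrane genes higher and 6 lower, so that list had no direction there, and without the filter on low counts 5 were lower. Slc4a1, the band 3 anion exchanger, had 11.4, 19.9 and 16.1 CPM at 24 h, against 3.83, 3.20 and 2.57 CPM at 0 h (2.30 ± 0.26, adjusted p = 1.51e-05). Kel, the Kell blood group protein, had 71.4, 69.4 and 68.6 CPM at 24 h, against 33.1, 36.9 and 41.1 CPM at 0 h (0.92 ± 0.12). For both genes every 24 h library was above every 0 h library. The higher members also included Xk, the membrane partner of Kel, at 0.37 ± 0.094. Epb42, protein 4.2, was 0.93 ± 0.31 (adjusted p = 0.0271), a call that was lost without 24 h replicate 3 (adjusted p = 0.16, log2 fold change 0.55), 0 h replicate 1 (0.0821) or 0 h replicate 3 (0.0885). The carbonic anhydrases went the other way. Car1 had 209, 200.2 and 187 CPM at 24 h, against 533, 431 and 469 CPM at 0 h (−1.26 ± 0.13, adjusted p = 6.92e-06), Car2 was −0.64 ± 0.074, and Ermap, an erythroblast membrane protein, −0.58 ± 0.07.

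Heme synthesis was mixed along the pathway. The erythroid first enzyme Alas2 had 10.8, 19.8 and 21.5 CPM at 24 h, against 4.85, 9.77 and 8.77 CPM at 0 h (1.15 ± 0.33, adjusted p = 0.012), and its housekeeping counterpart Alas1 had 19.3, 20.2 and 18.3 CPM at 24 h, against 11.8, 13.8 and 12.3 CPM at 0 h (0.61 ± 0.096, adjusted p = 0.000214). The lowest 24 h library of Alas2 was above the highest 0 h library by a small margin, and its call was lost without 24 h replicate 3 (adjusted p = 0.0504) or 0 h replicate 1 (0.0546). Some other enzymes of the pathway fell. Cpox, coproporphyrinogen oxidase, had 398, 419 and 470.4 CPM at 24 h, against 624, 809.7 and 740.1 CPM at 0 h (−0.76 ± 0.09). Alad, the second enzyme, was −0.61 ± 0.13, and Urod, uroporphyrinogen decarboxylase, −0.51 ± 0.07. Fech, which inserts the iron, was 0.068 ± 0.068 and did not pass the test. Of the 15 members, 3 were higher and 6 lower (median −0.037). The 40.0% lower match the 39.0% lower among all tested genes with a mean log2 CPM of 6 to 8, their median's range. Without 0 h replicate 1 only 1 was higher, and with total counts as library sizes the split was 6 higher and 3 lower. Of 4 tested globins 1 was called. Hbb-bs had 865, 1208 and 1161 CPM at 24 h, against 857, 868 and 1052 CPM at 0 h (0.22 ± 0.14), not called (adjusted p = 0.217) but past the threshold without 24 h replicate 1 (adjusted p = 0.0462, log2 fold change 0.35) or with total counts (0.0345). Hba-a1 was −0.17 ± 0.21 and did not pass, and the alpha genes are near-identical, so their split is uncertain. Hbb-bt had 28.2, 49.5 and 39.5 CPM at 24 h, against 26.2, 25.4 and 26.3 CPM at 0 h (0.59 ± 0.17, adjusted p = 0.0141), a call that was lost without 24 h replicate 2 (adjusted p = 0.0791, log2 fold change 0.38). The embryonic globins Hbb-y, Hbb-bh1 and Hba-x had 0 to 4 counts per library in both groups.

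Of the transcription factors, Lmo2, which bridges TAL1 and LDB1, had 92.4, 100.3 and 101 CPM at 24 h, against 154, 156 and 155 CPM at 0 h (−0.66 ± 0.052, adjusted p = 6.94e-07). Bcl11a, the repressor of fetal globin, was −0.66 ± 0.071, Cbfa2t3, the corepressor ETO2, −0.56 ± 0.087, and Klf1, the activator of adult beta globin, −0.34 ± 0.065. The erythropoietin receptor Epor was −0.31 ± 0.057, a call that total-count scaling removed (adjusted p = 0.0559). Gata1 counts, which in this line can include the introduced GATA1, were 2338, 2149 and 2092 CPM at 24 h, against 2626, 2906 and 2504 CPM at 0 h (−0.29 ± 0.089, adjusted p = 0.0187). That call did not survive total-count scaling (adjusted p = 0.224) or leaving out 24 h replicate 2 (0.052), 24 h replicate 3 (0.0544) or 0 h replicate 2 (0.0719). Tal1, at 0.14 ± 0.053 (adjusted p = 0.041), was the 1 regulator called higher, and its adjusted p was above 0.05 when any library other than 24 h replicate 3 was left out (0.0772 to 0.184). Nfe2, Gfi1b, Zfpm1 and Klf3 stood between −0.083 (Nfe2) and 0.035 (Klf3), none past the threshold.

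Several progenitor regulators fell. Ikzf1, the lymphoid and progenitor factor Ikaros, had 155, 172 and 162 CPM at 24 h, against 356, 375 and 330.5 CPM at 0 h (−1.12 ± 0.07, adjusted p = 1.12e-07). Myc had 171, 168 and 159.7 CPM at 24 h, against 326, 306 and 304 CPM at 0 h (−0.91 ± 0.067), and Gata2 had 239, 206 and 234 CPM at 24 h, against 429.7, 421 and 379.7 CPM at 0 h (−0.86 ± 0.085). The groups of all 3 genes were well apart. Kit, the stem cell factor receptor, was −0.57 ± 0.1, Myb −0.54 ± 0.11 and Etv6 −0.41 ± 0.068. In all, 6 of 14 tested members were lower and 1 higher (median −0.13), or 3 higher and 6 lower with total counts. Of all tested genes with a mean log2 CPM of 6 to 8, the range of the list's median, 39.0% were lower. The 42.9% of progenitor regulators that were lower are near that share. The higher gene was Meis1, a HOX cofactor, with 2.30, 1.65 and 2.50 CPM at 24 h, against 1.02, 0.821 and 1.14 CPM at 0 h (1.11 ± 0.27, adjusted p = 0.00461). Without 0 h replicate 2 a second member was called higher. Runx1 (−0.087 ± 0.091), Spi1 (−0.075 ± 0.10) and Lyl1 (0.12 ± 0.068) did not pass. Myb stood at 0.32 after 4 h of auxin, against the same 0 h libraries, and at −0.54 after 24 h.

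**Figure D3:**
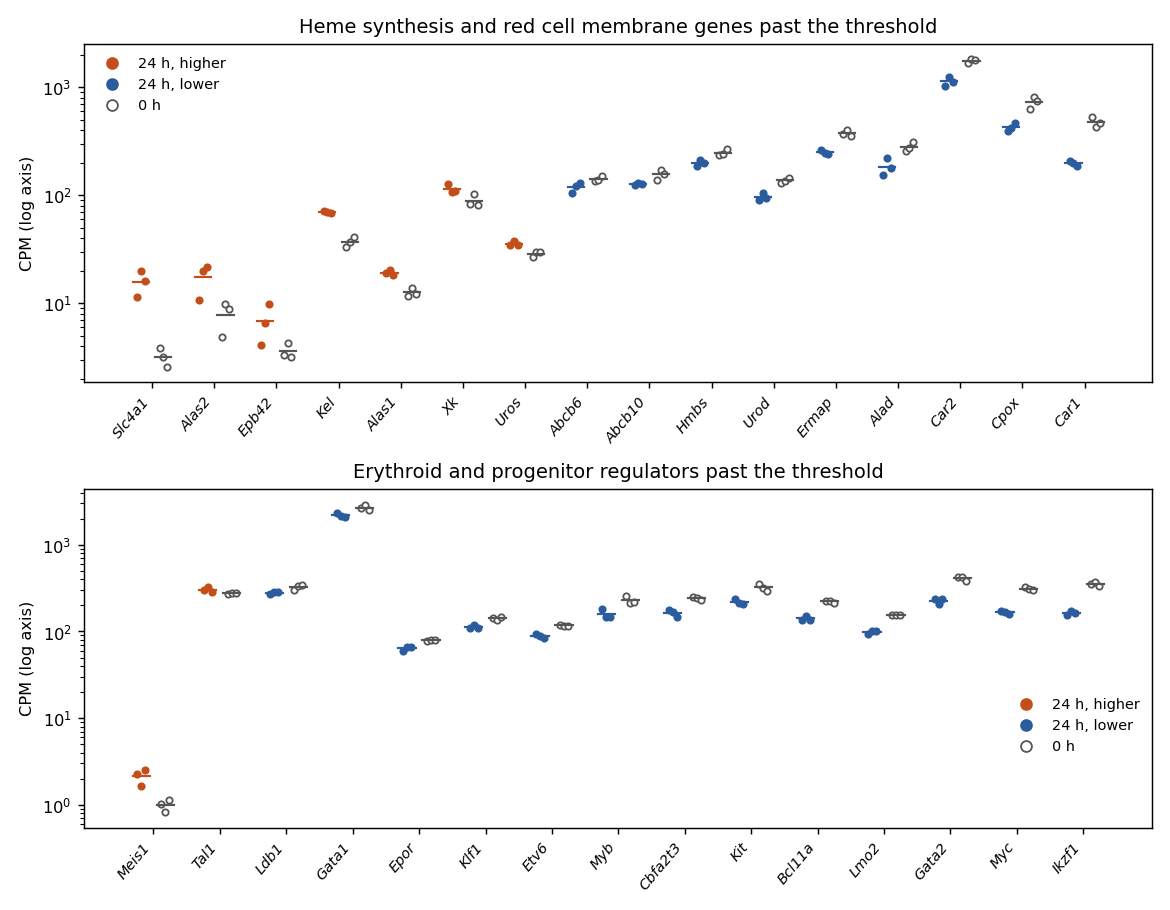
CPM of each library on a log axis for called members of the heme synthesis and red cell membrane lists (top) and of the erythroid and progenitor regulator lists (bottom), ordered by fold change. Points are libraries (filled, 24 h; open, 0 h; n = 3 each) and bars are means; Slc4a1 has 11.4 to 19.9 CPM at 24 h, against 2.57 to 3.83 CPM at 0 h, and Ikzf1 has 155 to 172 CPM at 24 h, against 330.5 to 375 CPM at 0 h.

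Several iron uptake genes were lower. Steap3, the ferrireductase of the transferrin cycle, had 57.1, 66.8 and 56.1 CPM at 24 h, against 132, 118 and 122 CPM at 0 h (−1.05 ± 0.077, adjusted p = 3.86e-07). Slc11a2, the iron importer DMT1, was −0.55 ± 0.086, and the transferrin receptor Tfrc −0.39 ± 0.081. Of 11 tested members 5 were lower and 1 higher (median −0.076), or 4 higher and 3 lower with total counts. The 45.5% lower stand beside 39.0% of all tested genes with a mean log2 CPM of 6 to 8, the range of their median. The ferritin chains Fth1 (−0.076 ± 0.11) and Ftl1 (0.25 ± 0.14) did not pass. The 1 higher member, Ncoa4, the receptor for ferritin turnover (0.17 ± 0.06), lost its call without any 1 of 24 h replicates 2 and 3 and 0 h replicates 2 and 3 (adjusted p 0.0795 to 0.125).

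Of 21 megakaryocyte genes 12 were tested, with 4 higher and none lower (median 0.45). That is 33.3%, beside 21.5% of all tested genes and 24.5% of those with a mean log2 CPM of 4 to 6. The list's median lies in that range, and the difference between these shares was not tested. Gp9, a subunit of the von Willebrand factor receptor, had 10.7, 12.8 and 14.2 CPM at 24 h, against 1.18, 2.09 and 1.75 CPM at 0 h (2.90 ± 0.19, adjusted p = 1.31e-07). Itgb3, the beta chain paired with Itga2b, had 151, 155 and 150.0 CPM at 24 h, against 95.1, 106 and 98.8 CPM at 0 h (0.61 ± 0.078), and Gp1ba, another subunit of that receptor, was 0.46 ± 0.11. Other genes of the lineage stayed low or unresolved: Pf4 had 10.0, 11.1 and 15.5 CPM at 24 h, against 18.1, 16.9 and 9.79 CPM at 0 h, and Vwf was below 1 CPM in every library of both groups. Gp1bb, Thbs1 and Clec1b were at 0 in all 12 libraries. Without 24 h replicate 1, 24 h replicate 3 or 0 h replicate 1, 1 member was called lower. Summed over all its members, tested or not, the list came to 793 to 899 CPM at 24 h, against 687 to 762 CPM at 0 h. In bulk RNA, a change in the number of cells of a type and in the RNA per cell cannot be told apart.

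Markers of other blood cells were scarce. Of 16 myeloid genes 4 were tested, 1 higher and 1 lower, and the list summed over all members to 16.8 to 22.8 CPM at 24 h, against 21.7 to 29.3 CPM at 0 h, with Cebpa, S100a8, S100a9 and Ngp at 0 in every library. Both of its calls were lost without 24 h replicate 1 or 0 h replicate 2. Of 10 mast cell genes 3 were tested, 1 higher and 1 lower, and the list summed to 62.4 to 90.8 CPM at 24 h, against 42.0 to 70.4 CPM at 0 h. The lower call was lost without 24 h replicate 2, 24 h replicate 3 or 0 h replicate 1. Cpa3, the mast cell carboxypeptidase, had 85.3, 58.6 and 65.5 CPM at 24 h, against 59.0, 35.9 and 36.7 CPM at 0 h (0.67 ± 0.20), with its call lost without 24 h replicate 1 (adjusted p = 0.086), 0 h replicate 2 (0.0766) or 0 h replicate 3 (0.076). Of 14 lymphoid genes 2 were tested and both were lower, led by Lck, a T cell kinase, with 2.60, 2.56 and 4.59 CPM at 24 h, against 7.99, 7.76 and 9.09 CPM at 0 h (−1.35 ± 0.24, adjusted p = 0.00055), while Cd3e and Cd4 were at 0 in every library. Without 24 h replicate 2 only 1 lymphoid gene was lower, and the list summed to 3.35 to 5.93 CPM at 24 h, against 9.61 to 10.1 CPM at 0 h. None of 11 pluripotency genes had enough counts to be tested and 6 of them, Pou5f1 and Sox2 included, were at 0 throughout. The list summed to 0.338 to 1.01 CPM at 24 h, against 0.285 to 0.367 CPM at 0 h, most of it from Nanog with 12, 7 and 26 counts at 24 h, against 7, 2 and 9 counts at 0 h. Their part in the other results was not tested.

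Several inhibitors of cyclin-dependent kinases rose, and several cyclins and kinases of G1 fell. Cdkn1a, the p53-driven inhibitor p21, had 201, 199 and 221 CPM at 24 h, against 117, 142 and 132 CPM at 0 h (0.67 ± 0.089, adjusted p = 5.55e-05), and Cdkn2c, the inhibitor p18, had 73.8, 74.2 and 75.4 CPM at 24 h, against 54.0, 55.6 and 58.9 CPM at 0 h (0.41 ± 0.077). Cdkn2b, the inhibitor p15, was 1.31 ± 0.27 at 1.39 to 1.65 CPM at 24 h, against 0.449 to 0.862 CPM at 0 h. On the other side, the cyclin D2 gene Ccnd2 had 512, 461 and 428 CPM at 24 h, against 754, 719.7 and 688 CPM at 0 h (−0.63 ± 0.099), and Cdk6 had 179, 132 and 122 CPM at 24 h, against 256, 253 and 229 CPM at 0 h (−0.77 ± 0.12). For all 5 genes the groups were apart. Ccne1, cyclin E1, was −0.54 ± 0.11, the phosphatase Cdc25a −0.34 ± 0.074 and the E2F factor E2f4 −0.55 ± 0.058. In all 6 of 20 members were higher and 9 lower (median −0.092), or 9 higher and 5 lower with total counts, which removed the smaller decreases of E2f1 (−0.27 ± 0.065), E2f3 (−0.27 ± 0.053) and Cdk4 (−0.21 ± 0.058). Of all tested genes with a mean log2 CPM of 6 to 8, the range of the list's median, 39.0% were lower and 14.3% higher. Members of the list also went against the directions named first. The kinase Cdk2 rose (0.27 ± 0.066, adjusted p = 0.00451), and the inhibitor Cdkn1b, p27, was −0.33 ± 0.19 (adjusted p = 0.175), past the threshold without 24 h replicate 3 (adjusted p = 0.0109, log2 fold change −0.61) or without the filter on low counts (0.0252).

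Targets of p53, the stress-activated tumour suppressor, were the list with the largest share of members higher. Of 22 tested, 14 (63.6%) were higher and 1 lower, with a median of 0.59. Beside this stand 21.5% of all tested genes higher, and 24.5% of those with a mean log2 CPM of 4 to 6, the range of the list's median. The difference between these shares was not tested. Eda2r, a receptor of the TNF family, had 27.0, 24.8 and 24.8 CPM at 24 h, against 9.42, 9.86 and 10.6 CPM at 0 h (1.36 ± 0.094, adjusted p = 2.48e-07), and Bbc3, the death-promoting PUMA, had 36.2, 39.4 and 38.5 CPM at 24 h, against 19.0, 19.0 and 16.5 CPM at 0 h (1.07 ± 0.09, adjusted p = 1.24e-06). Ercc5, a nuclease of excision repair, had 113, 97.1 and 109.9 CPM at 24 h, against 52.9, 55.1 and 59.2 CPM at 0 h (0.94 ± 0.072). All libraries of these genes at 24 h were above all at 0 h. Sesn2, a brake on mTORC1, was 0.65 ± 0.077. At 4 h the median of the same list was 0.12, against the same 0 h libraries, and nascent RNA after 4 h stood at −0.15 ± 0.14 for Ccng1, −0.035 ± 0.087 for Cdkn1a and 0.097 ± 0.19 for Eda2r. The member that fell was Bax, the pore-forming death effector (−0.40 ± 0.061). Without 24 h replicate 2 a second member was called lower. In the BCL2 family 4 of 13 members were higher (30.8%) and 3 lower (23.1%), with a median of 0.022, or 6 higher and 1 lower with total counts. These shares are near the 24.5% higher and 26.3% lower among all tested genes with a mean log2 CPM of 4 to 6, the range of the family's median. Beside Bbc3, the higher members were Bcl2l2, the survival protein BCL-W (0.81 ± 0.075), the death-promoting Bcl2l11, or BIM (0.51 ± 0.13), and Bad (0.35 ± 0.097). Bcl2l1, the survival protein that red cell precursors depend on, was 0.22 ± 0.093 (adjusted p = 0.0766), and it passed without 0 h replicate 2 (adjusted p = 0.00466, log2 fold change 0.34) and with total counts (0.00423).

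The JAK-STAT5 pathway, which relays the erythropoietin receptor, was mixed. Stat5a had 68.7, 66.9 and 60.1 CPM at 24 h, against 108, 100.5 and 99.0 CPM at 0 h (−0.65 ± 0.073, adjusted p = 1.23e-05), whereas Jak2 was −0.036 ± 0.085 and the STAT5 targets Cish (−0.20 ± 0.093) and Pim1 (−0.11 ± 0.083) did not pass. Socs3, a feedback inhibitor of cytokine signalling, had 5.72, 7.33 and 4.37 CPM at 24 h, against 2.53, 1.72 and 1.39 CPM at 0 h (1.62 ± 0.26), and Socs2 was 0.26 ± 0.052. Of 17 members 2 were higher and 5 lower (median −0.11). Of all tested genes with a mean log2 CPM of 6 to 8, the range of the list's median, 14.3% were higher and 39.0% lower. With total counts the split was 4 higher and 1 lower, so the direction of the list depends on the scaling.

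The TCA cycle and the pyruvate dehydrogenase complex had no higher member: 14 of 20 (70.0%) were lower and none higher (median −0.31), or 0 higher and 8 lower with total counts. Of all tested genes with a mean log2 CPM of 6 to 8, 39.0% were lower and 14.3% higher. The medians of this list and of the import list below lie in that range. Suclg2, the GTP-forming subunit of succinyl-CoA ligase, had 38.7, 52.6 and 43.0 CPM at 24 h, against 180.2, 178 and 203 CPM at 0 h (−2.06 ± 0.11, adjusted p = 4.58e-08), and Sucla2, its ATP-forming counterpart, had 46.9, 43.8 and 47.9 CPM at 24 h, against 83.7, 78.2 and 88.6 CPM at 0 h (−0.85 ± 0.078). Pdhx, which anchors the E3 subunit of pyruvate dehydrogenase, had 31.1, 31.4 and 31.7 CPM at 24 h, against 59.1, 59.7 and 65.2 CPM at 0 h (−0.97 ± 0.095). All 3 were also below 0 in nascent RNA after 4 h, at −1.18 ± 0.11, −0.62 ± 0.08 and −0.80 ± 0.098. Import of proteins into mitochondria showed 20 of 33 members lower and 4 higher (median −0.29), or 5 higher and 13 lower with total counts. Pmpca, the subunit of the protease that cuts off targeting peptides, had 99.4, 105 and 95.2 CPM at 24 h, against 191, 204 and 190.0 CPM at 0 h (−0.96 ± 0.064), and Grpel1, the exchange factor of the import motor, was −0.94 ± 0.075. The largest increase was Tomm40l, a paralog of the outer membrane pore, with 95.0, 113 and 101 CPM at 24 h, against 48.6, 54.8 and 58.4 CPM at 0 h (0.93 ± 0.078, adjusted p = 1.10e-06), where Tomm40 itself was −0.54 ± 0.065. Leaving out 24 h replicate 2, 0 h replicate 1 or 0 h replicate 2 gave 2 higher members.

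Among factors that copy, transcribe and translate the mitochondrial genome 13 of 39 were lower and 6 higher (median −0.077), and with total counts the order turned to 15 higher and 7 lower. Wars2, the mitochondrial tryptophanyl-tRNA synthetase, had 2.63, 1.96 and 1.68 CPM at 24 h, against 9.86, 14.8 and 14.4 CPM at 0 h (−2.64 ± 0.21, adjusted p = 6.96e-07). The window around the motif match in its promoter, 7 bases after the annotated start, is shown because it fell most in its list.
Wars2, chr3:99141085-99141114, plus strand: ccgcccttctcAAGATGGCgctgttctctg
Tfb2m, a transcription factor of mitochondria, was −0.69 ± 0.11, and Sars2, the seryl-tRNA synthetase, was the largest increase with 46.8, 48.3 and 44.6 CPM at 24 h, against 29.3, 29.4 and 30.1 CPM at 0 h (0.65 ± 0.064). Without 24 h replicate 2 or 0 h replicate 2 the higher members numbered 2 and 3. The mRNAs encoded by mitochondria showed 1 of 13 higher and 1 lower (median −0.0097), against 17 of 36 nuclear genes of complex I lower and 1 higher (median −0.19), 14 of 25 of complexes II to IV lower and 0 higher (−0.28) and 8 of 14 of the ATP synthase lower and 0 higher (−0.23). With total counts these splits were 3 higher and 0 lower for the mitochondrial mRNAs, 6 higher and 12 lower for complex I, 2 higher and 10 lower for complexes II to IV and 2 higher and 6 lower for the ATP synthase. The higher one, mt-Co1, had 5042, 5459.7 and 5886 CPM at 24 h, against 4304, 4250.5 and 4112 CPM at 0 h (0.37 ± 0.087). The lower one, mt-Cytb (−0.29 ± 0.094), lost its call without 24 h replicate 1 (adjusted p = 0.0571), 0 h replicate 1 (0.0675) or 0 h replicate 3 (0.0517) and with total counts (0.292). Among mitochondrial ribosomal proteins 32 of 78 were lower and 9 higher (median −0.11), and with total counts the order turned to 22 higher and 19 lower. Beside these counts stand 21.5% of all tested genes lower, and 26.3% to 39.0% of those with a mean log2 CPM of 4 to 8, where the medians of these lists of nuclear genes lie. The shares lower were 47.2% for complex I, 56.0% for complexes II to IV, 57.1% for the ATP synthase and 41.0% for the mitochondrial ribosomal proteins. Leaving out 24 h replicate 2, 0 h replicate 1 or 0 h replicate 2 left 4, 5 and 5 higher. Mrps18b, of the small subunit, had 33.7, 37.1 and 36.2 CPM at 24 h, against 87.1, 82.9 and 99.8 CPM at 0 h (−1.33 ± 0.083), while Mrpl45, of the large subunit, had 103, 107 and 121 CPM at 24 h, against 75.4, 84.3 and 91.4 CPM at 0 h (0.40 ± 0.079).

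Genes of nucleotide and one-carbon synthesis fell in 20 of 28 cases with none higher (median −0.34), or 4 higher and 12 lower with total counts. Dhodh, the mitochondrial step of pyrimidine synthesis, had 21.7, 25.8 and 22.1 CPM at 24 h, against 48.3, 55.0 and 54.6 CPM at 0 h (−1.18 ± 0.10, adjusted p = 1.30e-06). Gart, an enzyme of purine synthesis, was −0.85 ± 0.072, and Prps1, which makes the ribose donor of both pathways, −0.96 ± 0.082. Replication genes were lower in 17 of 42 cases (40.5%) and higher in 4 (median −0.13), or 11 higher and 11 lower with total counts. Of all tested genes with a mean log2 CPM of 6 to 8, the range of the list's median, 39.0% were lower and 14.3% higher. The share of lower replication genes is near that of genes at their level. Pole2, a subunit of the leading-strand polymerase, had 18.4, 21.2 and 15.6 CPM at 24 h, against 44.2, 44.1 and 43.5 CPM at 0 h (−1.26 ± 0.12), and Mcm3 was −0.39 ± 0.049. The clamp loader subunit Rfc4 had 109, 114 and 116 CPM at 24 h, against 90.1, 82.2 and 94.4 CPM at 0 h (0.35 ± 0.066). Without 0 h replicate 2 only 2 replication genes were higher. Mitotic genes were more often higher, with 15 of 39 higher and 5 lower (median 0.098), or 25 higher and 1 lower with total counts. Cdc25c, the phosphatase that starts mitosis, had 31.8, 35.0 and 37.4 CPM at 24 h, against 17.9, 23.4 and 22.1 CPM at 0 h (0.72 ± 0.11), cyclin B2 (Ccnb2) was 0.50 ± 0.069 and the kinetochore protein Ndc80 0.50 ± 0.079. Bub1b, a spindle checkpoint kinase, had 238, 217 and 216 CPM at 24 h, against 305, 329 and 283 CPM at 0 h (−0.45 ± 0.083).

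Lists of protein synthesis and folding differed. Of all tested genes with a mean log2 CPM of 6 to 8, 39.0% were lower, and above 8 54.1% were, and the medians of these lists lie in those ranges. Of 19 cytosolic tRNA synthetases 15 were lower and none higher (median −0.29), or 1 higher and 9 lower with total counts, led by the tyrosyl enzyme Yars with 135, 145 and 131 CPM at 24 h, against 186, 209.9 and 233 CPM at 0 h (−0.61 ± 0.089). Ribosome biogenesis factors were lower in 44 of 47 cases and higher in 1 (median −0.46), the 1 being Utp20. Cytosolic ribosomal proteins were lower in 17 of 78 cases and higher in 7 (median −0.055), but with total counts the split was 26 higher and 2 lower, so no direction can be given for them. Without 24 h replicate 1 or 0 h replicate 3, 6 were lower, and without 24 h replicate 3, 0 h replicate 1 or 0 h replicate 2, 4, 3 and 3 were higher. Splicing factors of the SR and hnRNP families were lower in 20 of 32 cases and higher in 3 (median −0.26), or 6 higher and 12 lower with total counts. Hnrnpa1 had 893, 939 and 919 CPM at 24 h, against 1354, 1412 and 1346 CPM at 0 h (−0.58 ± 0.046, adjusted p = 6.94e-07). Clk4, a kinase of SR proteins, rose with 65.4, 58.7 and 75.8 CPM at 24 h, against 33.8, 42.3 and 37.5 CPM at 0 h (0.81 ± 0.12). Heat shock proteins were lower in 11 of 17 cases and higher in 1 (median −0.34). Hsp90ab1, the constitutive HSP90, had 3430.3, 3469.9 and 3346 CPM at 24 h, against 4967, 4922 and 5216 CPM at 0 h (−0.56 ± 0.054), and Hsph1, an exchange factor of HSP70, was −0.70 ± 0.093. Proteasome subunits were lower in 12 of 31 cases and higher in 3 (median −0.11), with 5 lower and 6 higher under total counts, and with 7 and 5 lower without 24 h replicate 1 and without 0 h replicate 3. The 38.7% of proteasome genes that were lower match the share of all genes at their level. Psmc3, an ATPase of the regulatory particle, had 160.1, 179.9 and 168 CPM at 24 h, against 294, 293 and 333 CPM at 0 h (−0.86 ± 0.069), and Psmb1, of the core, had 244, 259 and 258 CPM at 24 h, against 188, 195 and 207 CPM at 0 h (0.37 ± 0.06).

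**Figure D4:**
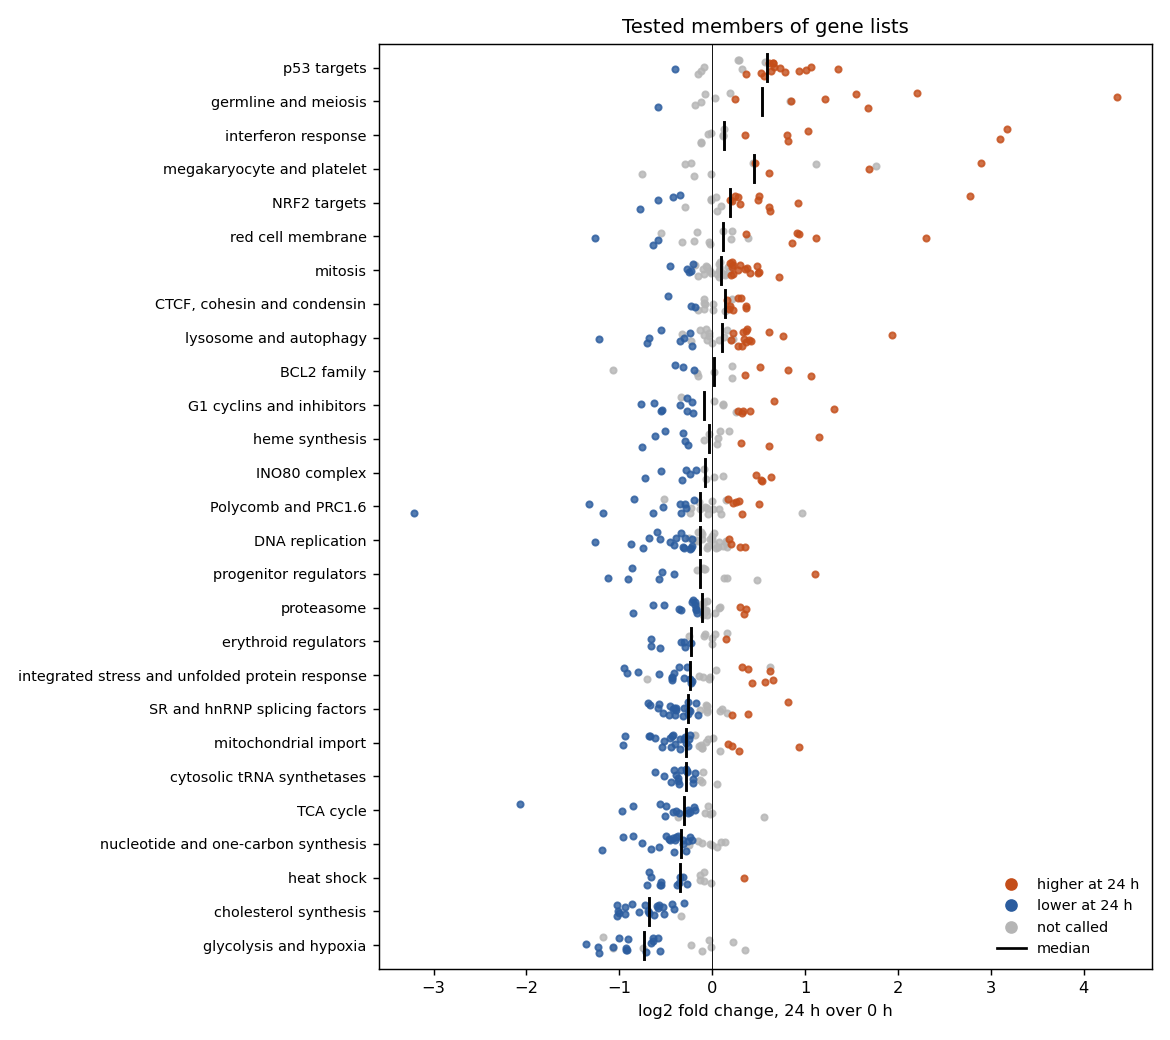
Log2 fold change of 24 h over 0 h for every tested member of the gene lists shown (points, coloured by the call), with the median of each list as a black bar. Medians run from 0.59 for p53 targets to −0.73 for glycolysis and hypoxia, and 20 of 21 members of cholesterol synthesis are lower.

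Of 21 tested genes of cholesterol synthesis 20 were lower and none higher, with a median of −0.68 at 24 h and 0.28 at 4 h, and both values use the same 0 h libraries. Hmgcs1, which makes HMG-CoA, had 432, 466 and 456 CPM at 0 h, 595, 689 and 613 CPM at 4 h, 276, 186 and 213 CPM at 24 h and 364, 347 and 354 CPM at 48 h. Every 4 h library was thus above, and every 24 h library below, the 0 h libraries. Glycolytic and hypoxia genes were lower in 15 of 24 cases with none higher (median −0.73, and −0.42 at 4 h). The count fell to 9 of 24 without 24 h replicate 1, 24 h replicate 2 or 0 h replicate 2. Of all tested genes with a mean log2 CPM of 6 to 8, where the medians of both lists lie, 39.0% were lower. Summed over its tested members, the glycolysis and hypoxia list had 6642, 7260 and 11430 CPM at 24 h, against 11820, 17630 and 14030 CPM at 0 h.

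Stress response lists were mixed. Of all tested genes with a mean log2 CPM of 6 to 8, 39.0% were lower and 14.3% higher. The medians of the integrated stress and NRF2 lists below lie in that range. Between 2 and 4, the range of the interferon list's median, 31.9% were higher and 17.7% lower. Genes of the integrated stress and unfolded protein responses were lower in 14 of 28 cases and higher in 6 (median −0.24), or 6 higher and 9 lower with total counts, and 3 were higher without 0 h replicate 1. Atf4, the factor at the centre of the integrated stress response, had 49.2, 54.4 and 56.2 CPM at 24 h, against 89.0, 109 and 111 CPM at 0 h (−0.95 ± 0.098, adjusted p = 6.55e-06), and its amino acid transporter targets Slc7a5 and Slc7a1 were −0.91 ± 0.089 and −0.80 ± 0.085. Hspa5, the ER chaperone BiP, was −0.43 ± 0.061. The higher members included Sesn2 (0.65 ± 0.077), Dnajb9 (0.43 ± 0.11), Cebpg (0.38 ± 0.083) and Ddit3 (0.57 ± 0.19). The call of Ddit3 was lost under 3 of 12 alternatives. Targets of NRF2, the sensor of oxidative stress, were higher in 11 of 21 cases and lower in 4 (median 0.19), though only 7, 7 and 5 were higher without 24 h replicate 1, 24 h replicate 2 and 0 h replicate 2. Osgin1 had 2.11, 2.07 and 2.05 CPM at 24 h, against 0.408, 0.246 and 0.245 CPM at 0 h (2.77 ± 0.33), and Nqo1, a quinone reductase, had 47.4, 50.7 and 44.3 CPM at 24 h, against 22.2, 22.3 and 30.3 CPM at 0 h (0.93 ± 0.15, adjusted p = 0.000239). Both were higher in nascent RNA after 4 h, at 2.85 ± 0.40 and 1.45 ± 0.14. The 4 lower members were Abcc4 (−0.78 ± 0.076), Pgd (−0.42 ± 0.079), Tkt (−0.35 ± 0.057) and Hmox1 (−0.59 ± 0.22). The call of Hmox1 was lost under 6 of 12 alternatives. Interferon response genes were higher in 6 of 13 cases with none lower (median 0.13). A further 15 matched members had too few counts to be tested, and members that passed the filter mainly through the auxin libraries could only be called higher, so this share is a description. Ifi27 had 49.8, 47.7 and 55.4 CPM at 24 h, against 26.5, 24.6 and 23.5 CPM at 0 h (1.03 ± 0.085, adjusted p = 9.23e-07), and Bst2, tetherin, was 0.82 ± 0.11, while the large fold changes of Mx1 (3.17 ± 0.49) and Oas1a (3.10 ± 0.88) came from levels below 1 CPM in every library of both groups.

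Lysosome and autophagy genes were higher in 14 of 36 cases and lower in 8 (median 0.10), or 19 higher and 6 lower with total counts. Of all tested genes with a mean log2 CPM of 6 to 8, the range of the list's median, 14.3% were higher and 39.0% lower. Map1lc3a, a membrane marker of autophagosomes, had 4.37, 3.95 and 4.55 CPM at 24 h, against 1.10, 1.31 and 0.938 CPM at 0 h (1.94 ± 0.21, adjusted p = 1.20e-05), and Mcoln1, the calcium channel of lysosomes, had 38.2, 36.8 and 40.7 CPM at 24 h, against 23.8, 22.7 and 21.7 CPM at 0 h (0.76 ± 0.10). Sqstm1, an autophagy receptor, was 0.61 ± 0.10. In the other direction, Atp6v1b2, a subunit of the proton pump that acidifies lysosomes, had 74.4, 77.1 and 85.3 CPM at 24 h, against 161, 199 and 192 CPM at 0 h (−1.22 ± 0.086), and Uvrag, which helps autophagosomes mature, was −0.70 ± 0.13. Of 13 immediate early genes 4 were higher (30.8%) and 2 lower (15.4%), with a median of 0.26, or 5 higher and 0 lower with total counts. These shares are near the 31.9% higher and 17.7% lower among all tested genes with a mean log2 CPM of 2 to 4, the range of the list's median. The lower ones numbered 0 or 1 when any 1 of the 6 libraries was left out. Jund, a subunit of the AP-1 factor, had 93.6, 99.8 and 101 CPM at 24 h, against 47.3, 50.1 and 41.9 CPM at 0 h (1.08 ± 0.097, adjusted p = 2.08e-06). Jun rose from a low level, with 0.790, 0.715 and 1.46 CPM at 24 h, against 0.122, 0.123 and 0.0408 CPM at 0 h (3.31 ± 0.48).

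Several Polycomb genes fell beside Sfmbt2. L3mbtl2, the MBT-domain subunit of the PRC1.6 complex, had 48.5, 51.4 and 45.5 CPM at 24 h, against 112, 109 and 108 CPM at 0 h (−1.18 ± 0.062, adjusted p = 3.21e-08), and E2f6, its DNA-binding partner, was −0.53 ± 0.082. Bmi1, of canonical PRC1, had 105, 103 and 94.3 CPM at 24 h, against 198, 164 and 181 CPM at 0 h (−0.84 ± 0.079), and Rnf2, the ubiquitin ligase of all PRC1 forms, was −0.63 ± 0.076. Ezh2, the methyltransferase of PRC2, was 0.29 ± 0.055. Of 31 tested members 11 were lower (35.5%) and 6 higher (19.4%), with a median of −0.13. Of all tested genes with a mean log2 CPM of 4 to 8, 26.3% to 39.0% were lower and 14.3% to 24.5% higher. The median level of the list is near 6, and its shares lie within those ranges. With total counts the order turned to 9 higher and 7 lower, and 3 were higher without 24 h replicate 1 or 0 h replicate 3. Germline and meiosis genes, many of which PRC1.6 is known to silence in mouse embryonic stem cells, were tested for 14 of 41 members, of which 7 were higher and 1 lower (median 0.54). Of all tested genes with a mean log2 CPM of 2 to 4, the range of that list's median, 31.9% were higher. A list that is near silent at 0 h passes the filter mainly through genes that rose, so the list's share is a description of those with counts. Zcwpw1, a reader of meiotic histone marks, had 18.5, 20.8 and 21.7 CPM at 24 h, against 6.68, 6.32 and 6.03 CPM at 0 h (1.68 ± 0.12), and Prdm9, which places those marks, had 7.90, 8.24 and 9.07 CPM at 24 h, against 3.55, 3.29 and 4.04 CPM at 0 h (1.21 ± 0.19, adjusted p = 0.000247). Hormad2, of the meiotic chromosome axis, had 12.3, 12.8 and 13.8 CPM at 24 h, against 19.1, 17.9 and 21.2 CPM at 0 h (−0.58 ± 0.11).

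The INO80 remodeler, which is known to contain YY1, had subunits called in both directions. Actr8, an actin-related subunit, had 72.9, 78.2 and 76.0 CPM at 24 h, against 49.4, 46.9 and 50.4 CPM at 0 h (0.63 ± 0.058, adjusted p = 2.32e-06), Ino80b had 28.2, 31.9 and 26.5 CPM at 24 h, against 19.4, 21.6 and 18.7 CPM at 0 h (0.54 ± 0.1), and the ATPase Ino80 was 0.47 ± 0.091. Actr5, also an actin-related subunit, had 32.9, 32.9 and 29.6 CPM at 24 h, against 46.1, 47.5 and 46.3 CPM at 0 h (−0.55 ± 0.079), and Ruvbl2, an ATPase shared with other complexes, was −0.72 ± 0.058. The groups were apart for all 5. Of 14 tested members, Yy1 among them, 4 were higher (28.6%) and 6 lower (42.9%), with a median of −0.079, or 5 higher and 2 lower with total counts. Of all tested genes with a mean log2 CPM of 6 to 8, the range of the list's median, 14.3% were higher and 39.0% lower. The share of lower members is near that of genes at their level. The fourth higher member, Ino80d, was 0.53 ± 0.15 (adjusted p = 0.0135), a call that was lost without 24 h replicate 1 (adjusted p = 0.072) or 0 h replicate 3 (0.07). After 4 h, against the same 0 h libraries, the higher members stood at 0.44 (Actr8), 0.60 (Ino80b), 0.59 (Ino80) and 0.48 (Ino80d), the last of which did not pass the test at 4 h. Among CTCF, cohesin and condensin genes 8 of 21 were higher (38.1%) and 3 lower (median 0.14), or 11 higher and 1 lower with total counts. Without 24 h replicate 1 or 24 h replicate 3, 5 were higher. The median level of this list lies in the same range of 6 to 8, where 14.3% of all tested genes were higher, and the difference between the shares was not tested. Rad21, the cleavable subunit of cohesin, had 546, 527 and 524 CPM at 24 h, against 428, 448 and 416 CPM at 0 h (0.31 ± 0.051), and Ncaph2, of condensin II, was 0.37 ± 0.054. Stag1, an alternative cohesin subunit, had 87.3, 97.1 and 81.0 CPM at 24 h, against 116, 125 and 128 CPM at 0 h (−0.47 ± 0.10).

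The 24 h changes were compared with nascent RNA, which shares no library with them. TT-seq measured RNA labelled for 5 min with 500 µM 4-thiouridine, untreated and after 4 h of auxin (3 libraries each). Of the 2221 genes higher at 24 h that were tested there, 84.9% were above 0 in nascent RNA (median 0.20), and of the 2941 lower genes 80.5% were below 0 (median −0.17). Genes not called at 24 h were above 0 in 57.7% of 4948 cases. The TT-seq values were scaled by TMM as well, and no other scaling of them was tried. These shares therefore depend on where TMM places 0. For changes of more than 1 on the log2 scale the same-sign shares were 89.8% of 433 higher genes and 91.8% of 377 lower genes. Not every gene followed its group: Ddx17 was 0.73 ± 0.06 at 24 h and −0.16 ± 0.10 in nascent RNA, and Primpol, a primase that restarts stalled forks, was 0.35 ± 0.078 at 24 h and −0.32 ± 0.14 in nascent RNA.

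The 4 h, 24 h and 48 h comparisons share their 0 h libraries and are given side by side. The genes higher at 24 h had a median of 0.18 at 4 h, 0.70 at 24 h and 0.74 at 48 h, and the lower genes had −0.13, −0.47 and −0.53. Of the 3253 higher genes, 312 were called higher and 6 lower at 4 h, where 3.14% of all tested genes were higher and 4.14% lower (7.28% in all), and 2764 higher and 3 lower at 48 h, where 24.9% were higher and 24.6% lower (49.5% in all). Of the 3258 lower genes, 526 were called lower and 38 higher at 4 h, and 2785 lower and 10 higher at 48 h. Single genes left this pattern after 24 h: Cdk5rap2 stood at −2.77 at 24 h and −1.74 at 48 h, Gata1 at −0.29 and 0.22, Car1 at −1.26 and −2.60, and Alas2 at 1.15 and 2.33.

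The YY1 motif was more frequent in promoters of genes that fell, a description with no test. The letters GCCATNTT were searched on both strands (AANATGGC on the other) in the RefSeq promoters of the 9468 tested genes that matched the table, 9432 by symbol and 36 by synonym. Some genes have several promoters, which share sequence. A match was found in 387 of 3038 promoters of lower genes (12.7%), 231 of 2793 of higher genes (8.27%) and 468 of 6151 of genes not called (7.61%). For changes of more than 1 the shares were 17.0% of 395 promoters of lower genes and 6.10% of 738 of higher genes. Over all 32851 promoters of the table the share was 6.05%. The lower genes were also more strongly counted, and their promoters had a median GC content of 61.7%, against 59.3% for higher genes. Among genes whose mean log2 CPM was 4 or more, a limit chosen after seeing the data, the shares were 12.7% for lower, 10.4% for higher and 8.88% for genes not called, with GC medians of 62.0%, 60.3% and 61.7%.

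Matches of the lower genes gathered after the start. Of their 421 matches, 228 (54.2%) lay in the 50 bases after the annotated start, against 41.4% of 256 in higher genes and 39.7% of 496 in genes not called. In the first 25 bases after the start there were 3.82 matches per 100 promoters of lower genes, 2.51 of higher genes and 1.68 of genes not called, and in the next 25 bases 3.69, 1.29 and 1.53. Before the start, no bin of 25 bases in any of the groups reached 1 match per 100 promoters. On the gene's strand the reverse complement AANATGGC made up 290 of the 421 matches in lower genes, 138 of 256 in higher genes and 292 of 496 in genes not called. These letters contain ATG, and whether a match is also a start codon was not tested. Genes on both sides of the comparison carry the match at a like place, as in these windows of genes named above, the first pair lower and the second higher.
Mrpl42, chr10:95501904-95501933, minus strand: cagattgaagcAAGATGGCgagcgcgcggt
Pole2, chr12:69228149-69228178, minus strand: gccaaatcgcgAACATGGCgccggagcggc
Utp20, chr10:88826788-88826817, minus strand: cctggctttccAACATGGCggcgcccagcg
Oaz1, chr10:80826667-80826696, plus strand: tcggcgccggcGCCATTTTgcgaacggcga
Their first bases lie 28, 24, 9 and 23 bases after the annotated starts. Mrpl42, a mitochondrial ribosomal protein, had 38.2, 46.9 and 40.3 CPM at 24 h, against 92.5, 89.9 and 93.0 CPM at 0 h, and Utp20 had 342, 336 and 323 CPM at 24 h, against 247, 218 and 225 CPM at 0 h.

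**Figure D5:**
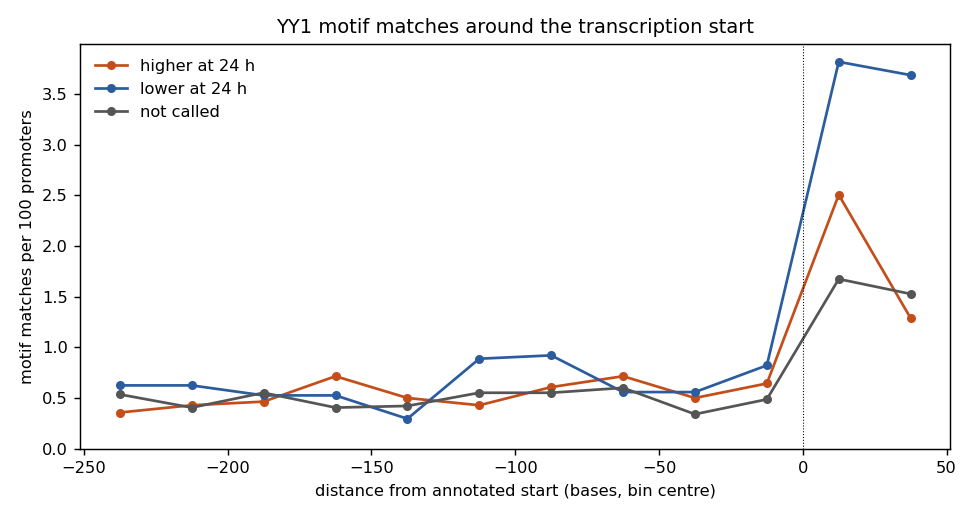
Matches of the YY1 motif per 100 promoters in bins of 25 bases, by distance from the annotated start (negative, before it), for promoters of genes higher, lower or not called at 24 h. Lines join bin centres; the 2 bins after the start hold 3.82 and 3.69 matches per 100 promoters of lower genes, against 1.68 and 1.53 of genes not called.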

How the data were processed

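PolyA RNA of 12 libraries (0, 4, 24 and 48 h of auxin, 3 each) was sequenced from 500 ng of total RNA with a stranded kit, per the labels' protocols. The RNA-seq table holds estimated counts per gene symbol, deposited by the authors as whole numbers; the submitters' processing notes name Salmon 0.13.1, DESeq2 and mm9. The TT-seq table holds raw read counts per gene, deposited by the authors. For it the submitters' processing notes name Trim Galore 0.6.10, STAR, SAMtools and the genome builds mm9 and dm6. Rows that name no gene were left out.

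Genes with enough counts (filterByExpr) were scaled by TMM and tested with edgeR 4.0.16 in R 4.3.3 (quasi-likelihood test, Benjamini-Hochberg adjustment over all tested genes, threshold 0.05). All 12 libraries entered 1 fit, since they share 1 estimate of the spread. TT-seq was fitted apart with its own TMM factors, 4 h of auxin against untreated. The steps were tested on simulated data. Alternatives used DESeq2 1.42.0, other scalings and filters, and leaving out each library.

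Named genes are the 10 highest and 10 lowest fold changes among called genes with a mean log2 CPM of 3 or more and groups that do not overlap. Predicted and clone-type names were left out there and among near-silent genes. Also named are the smallest p above 8, near-silent genes switched on or off and the smallest p in each gene list. Members of the blood and cell cycle lists and genes of opposite sign at 4 h were named as well. The members and the 44 gene lists, of 1215 symbols, were chosen with earlier results of these data known. A list of replication-dependent histones matched no symbol and is not described, and some named genes are not reported here. Promoters are RefSeq's, GRCm38.p6; ChIP-seq peaks on mm9 were not joined to them.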

Additional observations from a re-analysis of the deposited data

Results flagged for a closer look

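Some genes stood on opposite sides of the 0 h libraries after 24 h and after 4 h of auxin, called both times. There were 6 genes higher at 24 h and lower at 4 h, and 38 the other way round, and both comparisons share the 0 h libraries. The difference itself was tested as 24 h against 4 h in edgeR's quasi-likelihood test, and 9 of the largest are given.

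On the log2 scale, 24 h minus 4 h was 1.206 for 1110019D14Rik (adjusted p = 5.26e-05), 0.9713 for Ccdc18, a centriole-associated protein (1.53e-05), 0.9426 for Cradd, a death domain adaptor (1.61e-05), 0.8638 for Primpol (5.35e-06) and 0.6972 for Hbp1, a repressor of the cell cycle (0.000272). Ccdc18 had 15.4, 12.9 and 15.05 CPM at 0 h, 11.4, 10.6 and 11.7 CPM at 4 h and 20.1, 24.6 and 21.4 CPM at 24 h. The 24 h call of Hbp1 (0.31, adjusted p = 0.0306) was lost when any library other than 24 h replicate 2 was left out (0.0512 to 0.194).

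In the other direction, the difference was −1.487 for Mvd (adjusted p = 6.97e-07), −1.491 for Hmgcs1 (1.22e-06) and −1.422 for Msmo1 (4.74e-07), 3 enzymes of cholesterol synthesis, and −0.9733 for Rdh11, a retinol dehydrogenase (1.34e-05). Mvd had 94.3, 100.2 and 114 CPM at 0 h, 127, 151 and 149 CPM at 4 h and 57.6, 43.7 and 51.2 CPM at 24 h.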

How the results depend on the processing

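Of 315 called genes among the 382 checked, 66 lost the call under at least 1 of 12 alternatives, and none of the 382 reversed. The scaling mattered most: with total counts as library sizes, chosen after seeing the data, 4975 genes were higher and 2019 lower, which include all 3253 higher genes and 2019 of the 3258 lower ones; the cause was not tested. Size factors (RLE), no filter on low counts, the 0 h and 24 h libraries alone and DESeq2 gave 2951 to 3128 higher and 3050 to 3447 lower genes. Without 1 library each time, the higher genes numbered 2610 to 2884 and the lower ones 2926 to 3054, and those changed by over 1 on the log2 scale 901 to 1085 and 431 to 525. Same-numbered 24 h and 0 h libraries did not deviate together (r of 0.092, −0.0686 and −0.0156). Same-numbered 4 h and 0 h libraries had r of 0.103, 0.0526 and 0.0967, against −0.101 to 0.00426 for other numbers. For 48 h and 24 h libraries r was 0.025, 0.0859 and 0.0818, against −0.0879 to 0.0127. Whether the numbers pair the libraries is therefore not settled. A fit with a replicate block called 3413 genes higher and 3481 lower, and 1114 and 462 by over 1. In that fit 7 red cell membrane genes were higher and 6 lower. The block in the TT-seq fit gave 85.2% of higher and 80.8% of lower genes on the same side of 0. With the shorter CCATNTT the motif share was 19.7% for lower and 14.9% for higher genes, with the longer CGCCATNTT 7.97% and 5.08%, and for genes with a mean log2 CPM of 4 or more 12.7% and 10.4%, as the letters searched and the promoters counted differ.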
